A study of Nomascus leucogenys with 9 samples.

Results

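The APOBEC3 genes encode cytidine deaminases, enzymes that turn cytosine into uracil in single-stranded DNA. They are known as innate restriction factors against retroviruses and against endogenous retroelements such as LINE-1, and most are expressed in lymphocytes. Some members (APOBEC3A, APOBEC3C and APOBEC3H) carry a single deaminase domain, and the others (APOBEC3B, APOBEC3D, APOBEC3F and APOBEC3G) carry a pair. The family was looked up in the deposited table by 7 human Ensembl gene identifiers, and 5 of them had a row among the 15356 rows of the table. These were APOBEC3B (ENSG00000179750), APOBEC3C (ENSG00000244509), APOBEC3D (ENSG00000243811), APOBEC3G (ENSG00000239713) and APOBEC3H (ENSG00000100298). APOBEC3A (ENSG00000128383) and APOBEC3F (ENSG00000128394) had no row, so no level can be given for them, and a missing row does not show that a gene is silent. The members are the family as named, and no level was used to pick among them.

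Transcript levels came from RNA-seq of lymphoblastoid lines (B lymphocytes kept growing in culture by Epstein-Barr virus) of 9 northern white-cheeked gibbons (Nomascus leucogenys). The lines are named after the animals, which are Vok, Ricky, Phyllis, Nancy, Melouprey, Khao, China, Bobby and Asia. All 9 form 1 group, without treatment, genotype, age or time in the labels. The study as a whole concerned LAVA, a retrotransposon of gibbons. With 1 library per animal, the animal, its culture and its transformation by the virus cannot be told apart, and nothing measures the error within a line.

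Levels are in the log2 units deposited by the authors, where 1 unit is a 2-fold difference if the base is 2, which is not stated. A level in parts per 1000000 (ppm) is a share of a line's total after the log2 values were raised to base 2. These linear totals lay between 13728358 and 14059842, so the columns had already been scaled alike when deposited, and their depth is unknown. A row was kept when its mean reached 1 ppm, which left 12590 rows and all 5 APOBEC3 rows. Gene lengths were not used here, so levels are compared between lines and not between genes. Members of the family resemble each other in sequence, and how reads that fit more than 1 member were counted is not given in the sources used here. Each level may therefore hold reads of a relative. The B cell label could not be checked against marker genes, because none of the 74 symbols in the lists of markers and related genes could be matched to the identifiers of the table.

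APOBEC3G differed most among the lines, and the other 4 members spanned about 2-fold or less. The members' ranges were 4.21-fold for APOBEC3G, 2.03-fold for APOBEC3B, 1.94-fold for APOBEC3C, 1.93-fold for APOBEC3D and 1.76-fold for APOBEC3H. A range of at least 2-fold was thus found in 2 of 5 members, and in 26.4% of all kept rows. The median SD of the 5 members was 0.33 log2 units, against 0.22 over all kept rows. Of the members, 1 had an outlying line under Dixon's gap criterion, as did 10.1% of all kept rows.

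**Figure D1:**
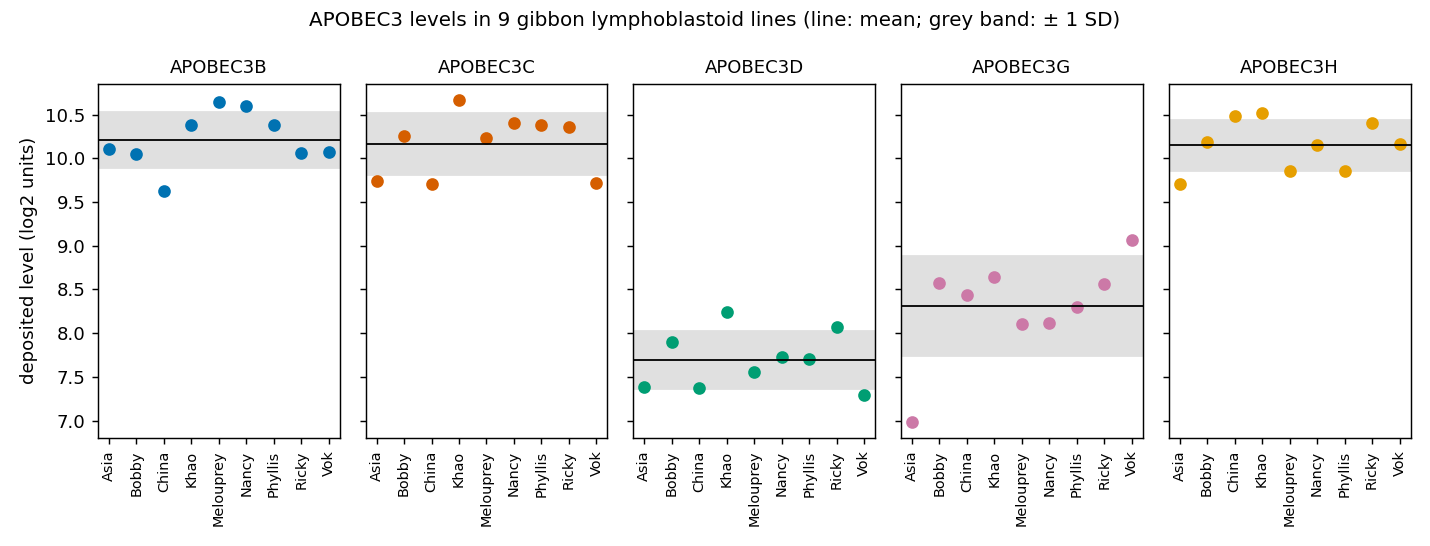
Deposited level (y axis, log2 units) of the 5 measured APOBEC3 genes in each of the 9 lines (x axis), with 1 point per line, the mean as a black line and 1 SD on either side in grey. APOBEC3G in Asia, at 6.99, lies far below the other lines, and APOBEC3C has Asia, China and Vok on a lower level.

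APOBEC3B is a largely nuclear member of the family, best known for mutations in tumour genomes, and a protein of Epstein-Barr virus is known to bind it. Its level was 10.10 log2 units in Asia, 10.05 in Bobby, 9.62 in China, 10.38 in Khao, 10.64 in Melouprey, 10.60 in Nancy, 10.38 in Phyllis, 10.06 in Ricky and 10.07 in Vok. Melouprey and Nancy were highest and close to each other, 4 lines sat together between 10.05 and 10.10, and China was lowest. The mean was 10.21 ± 0.32 log2 units (SD, n = 9), or 86.9 ± 18.8 ppm. China decided the width of the range, which was 1.51-fold without it. Without Melouprey it was 1.97-fold. The SD exceeded that of 81.7% of the 1955 rows whose mean lay within 0.5 log2 units of this one.

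APOBEC3C is a small single-domain member that has been described as restricting LINE-1. Its level was 9.74 log2 units in Asia, 10.26 in Bobby, 9.71 in China, 10.67 in Khao, 10.23 in Melouprey, 10.41 in Nancy, 10.39 in Phyllis, 10.36 in Ricky and 9.72 in Vok. The values fell on separate levels. China, Vok and Asia lay within 0.027 log2 units of each other, and a gap of 0.49 log2 units, 51.1% of the whole range, separated them from the next line. The mean was 10.16 ± 0.35 log2 units (SD, n = 9), or 84.4 ± 19.7 ppm. No label sets these 3 lines apart from the other 6.

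APOBEC3D, which carries a pair of deaminase domains and is among the members that restrict HIV-1, followed a similar order. Its level was 7.38 log2 units in Asia, 7.90 in Bobby, 7.37 in China, 8.24 in Khao, 7.56 in Melouprey, 7.73 in Nancy, 7.71 in Phyllis, 8.07 in Ricky and 7.29 in Vok. Khao was highest, as for APOBEC3C. Asia, China and Vok were again the lowest lines, 0.18 log2 units or more below the others, but the values above them were graded. The mean was 7.69 ± 0.33 log2 units (SD, n = 9), or 15.2 ± 3.51 ppm.

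APOBEC3G is the member that is packaged into HIV-1 particles when the viral protein Vif is missing, and it deaminates the viral DNA made from them. Its level was 6.99 log2 units in Asia, 8.58 in Bobby, 8.43 in China, 8.64 in Khao, 8.10 in Melouprey, 8.12 in Nancy, 8.30 in Phyllis, 8.56 in Ricky and 9.06 in Vok. Asia stood 1.12 log2 units below the next line and 2.73-fold below the median of the gene. Vok was highest, at 1.54-fold above the median. The mean was 8.31 ± 0.58 log2 units (SD, n = 9), or 24.2 ± 8.06 ppm, and the SD exceeded that of 91.8% of kept rows with a similar mean. Without Asia, the range was 1.94-fold, close to that of the other members.

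Asia departed from the other lines over the whole table too. The SD of its deviations from the row medians, over all kept rows, was 0.53 log2 units, against 0.22 to 0.42 in the other lines. It was the lowest line in 14.0% of kept rows and the highest in 22.6%, where 9 equal lines would each take 11.1%. Vok was at an end at least as often, as the lowest line in 17.1% and the highest in 21.7%, and Khao was lowest in 14.4%. Among the 5 members Asia was lowest in 2 and highest in 0, and so was China. The part that these departures of the libraries play in the low APOBEC3G level of Asia and the high one of Vok was not tested.

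APOBEC3H, a single-domain member known for its many protein variants among primates, varied least. Its level was 9.70 log2 units in Asia, 10.18 in Bobby, 10.49 in China, 10.52 in Khao, 9.85 in Melouprey, 10.15 in Nancy, 9.85 in Phyllis, 10.40 in Ricky and 10.17 in Vok. Khao and China were highest and within 0.034 log2 units of each other, and Asia was lowest without a wide gap. The mean was 10.15 ± 0.29 log2 units (SD, n = 9), or 82.8 ± 16.4 ppm. China combined a high level of this gene with the lowest levels of APOBEC3B and APOBEC3C.

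Seen by line, Khao was above the median in all 5 members, by 0.21 to 0.53 log2 units, and was the highest line in 3 of them. Over all kept rows Khao was the highest line in 11.3%. How often a line lay above or below the median over those rows was not counted. Asia was below the median in 4 members and at the median in APOBEC3B. The other lines were mixed. Melouprey was 0.54 log2 units above the median in APOBEC3B and below it in the other 4 members, by at most 0.33. Vok was 0.63 above in APOBEC3G, and 0.54 and 0.42 below in APOBEC3C and APOBEC3D. The levels of the 5 members summed to 293.5 ± 41.7 ppm (SD, n = 9), from 221.0 ppm in Asia to 367.7 ppm in Khao, a 1.66-fold span. Within that sum, the share of APOBEC3G had the widest ratio between lines, from 4.12% in Asia to 14.2% in Vok, and the share of APOBEC3C the narrowest, from 22.4% in Vok to 32.5% in Phyllis. The sum and the shares are in normalised counts, so longer transcripts weigh more in them.

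**Figure D2:**
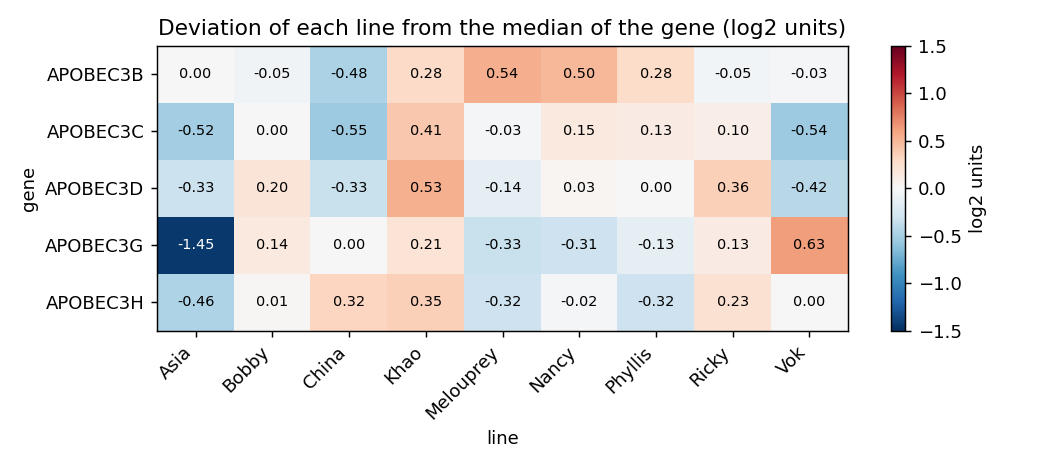
Deviation of each line (columns) from the median of each gene (rows) in log2 units, with red above and blue below the median and the value in each cell. Khao is above the median in all 5 genes, and the lowest cell is APOBEC3G in Asia, at -1.45.

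To ask whether the members varied together among the animals, Pearson's r and Spearman's rho over the 9 lines were computed for all 10 pairs, with two-sided exact permutation tests. The r was above 0 in 8 pairs and below 0 in 2. Over all other kept rows, the median r with a member lay between -0.10 (APOBEC3C) and -0.04 (APOBEC3B). An unadjusted p under 0.05 was reached by 2 pairs, APOBEC3C with APOBEC3D and APOBEC3G with APOBEC3H. That count has to be read against the table, since many rows correlate over 9 lines. The same test gave an unadjusted p under 0.05 for 4.95% of all other kept rows with APOBEC3B, 15.2% with APOBEC3C, 14.7% with APOBEC3D, 10.2% with APOBEC3G and 7.03% with APOBEC3H. With Benjamini-Hochberg adjustment over the 12589 other rows, 0 rows passed for any of the 5 genes, members included.

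APOBEC3C and APOBEC3D were the most alike. Their r was 0.89 (exact permutation p = 0.0018) and their rho 0.85 (exact permutation p = 0.0061). The difference between the pair within a line had an SD of 0.16 log2 units, less than the SD of either gene, and ran from 2.29 in Ricky to 2.68 in Phyllis. Of the other kept rows, 0.43% correlated at least as strongly with APOBEC3C as APOBEC3D did, and 0.22% at least as strongly with APOBEC3D as APOBEC3C did. Adjusted over all other kept rows, the exact permutation p was 0.16 for APOBEC3C and 0.22 for APOBEC3D as the reference gene. The r lay between 0.85 and 0.92 with any 1 line left out, and was 0.82 without China and Vok. Without China and Vok, the r of APOBEC3C was higher with APOBEC3G, at 0.88, and was 0.76 with APOBEC3H. Asia, the lowest line for APOBEC3G and APOBEC3H, remained in those values. With only Asia left out, the r of APOBEC3C was -0.38 with APOBEC3G and -0.047 with APOBEC3H. Since APOBEC3C fell on separate levels, its r with APOBEC3D was also taken within the 6 upper lines, where it was 0.72 (exact permutation p = 0.082; rho = 0.54, p = 0.30). These lines were picked by their APOBEC3C level, which narrows its range and can lower r by itself, so the lower value is a description. In the same 6 lines the r of APOBEC3C was lower than over all 9 with APOBEC3B, at 0.072 against 0.64. With APOBEC3G and APOBEC3H the r of APOBEC3C was higher than over all 9. It was 0.44 against 0.22 with APOBEC3G (exact permutation p = 0.42 in the 6 lines). With APOBEC3H it was 0.66 against 0.22 (exact permutation p = 0.14 in the 6 lines). Whether APOBEC3C and APOBEC3D shared reads in the counting was not tested.

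**Figure D3:**
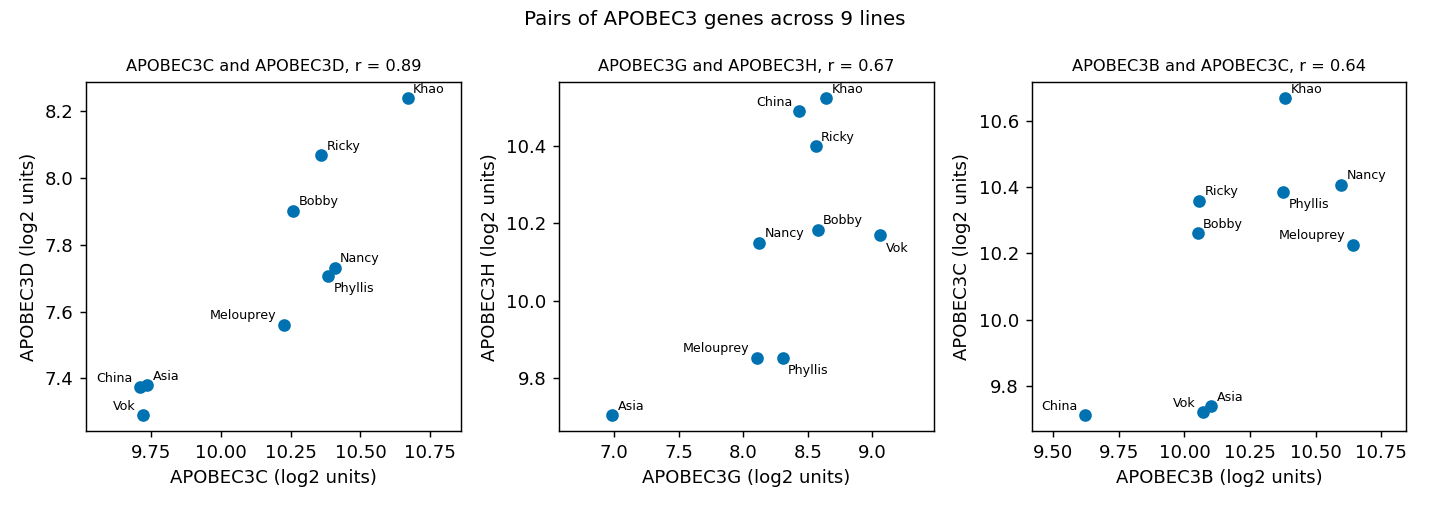
Levels of a pair of APOBEC3 genes in each of the 9 lines (both axes in log2 units, 1 labelled point per line) for the 3 pairs with the highest r. In the left panel Asia, China and Vok form a low cluster. In the right panel China is lowest in both genes, and Asia and Vok are low in APOBEC3C only. In the middle panel Asia lies apart at the lower left.

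APOBEC3G and APOBEC3H had an r of 0.67 (exact permutation p = 0.033) and a rho of 0.75 (exact permutation p = 0.025). Adjusted over all other kept rows, the exact permutation p of the r was 0.49 with APOBEC3G and 0.69 with APOBEC3H as reference. Single lines moved the r. It was 0.43 without Asia, the lowest line for both genes (exact permutation p = 0.29), 0.75 without Vok (exact permutation p = 0.0057), and 0.72 without the pair of lines farthest from the APOBEC3G median, Asia and Vok. As strong an r or a stronger one was found for 4.39% of other kept rows with APOBEC3G and for 2.74% with APOBEC3H.

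APOBEC3B and APOBEC3C followed with an r of 0.64 (exact permutation p = 0.070; rho = 0.53, p = 0.15; r = 0.70 without Melouprey and Nancy). Within the 6 upper lines of APOBEC3C the r of APOBEC3B and APOBEC3C was 0.072 (exact permutation p = 0.91), again in lines picked by their APOBEC3C level. The r of APOBEC3B with the other members was -0.41 with APOBEC3H (exact permutation p = 0.27), -0.15 with APOBEC3G (p = 0.71) and 0.29 with APOBEC3D (p = 0.45). These moved with single lines, to -0.17 with APOBEC3H and 0.052 with APOBEC3D without China, and to -0.52 with APOBEC3G without Asia. The remaining 4 pairs had r values from 0.22 to 0.47, with exact permutation p between 0.20 and 0.61. With 9 lines, these values do not show that the genes vary independently.

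**Figure D4:**
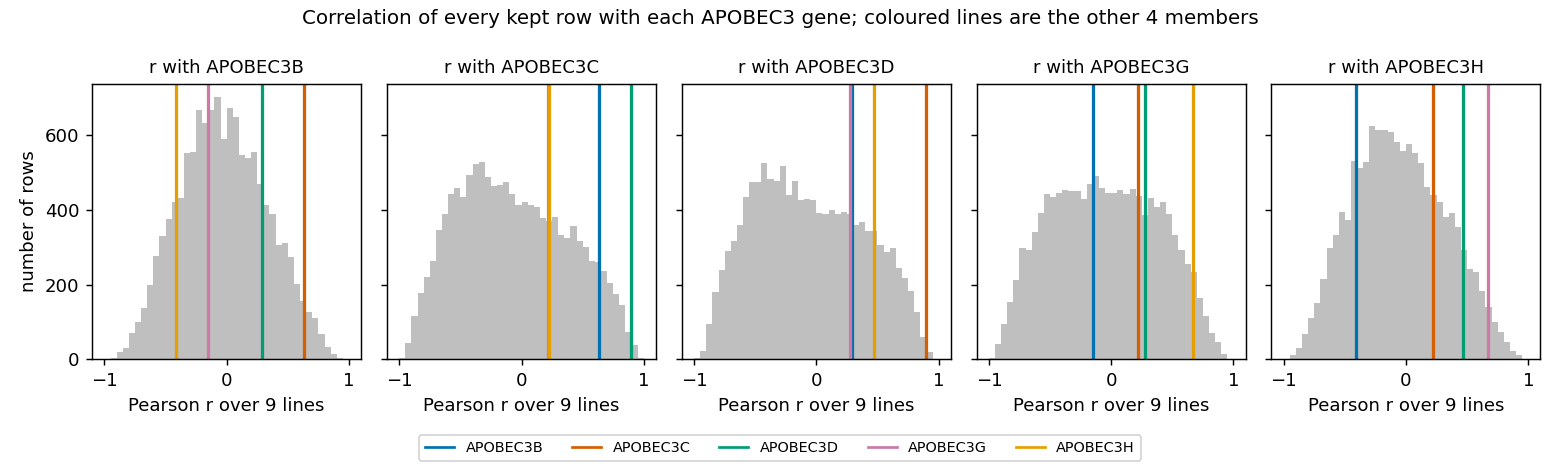
Number of kept rows (y axis) by their Pearson r over the 9 lines (x axis) with each APOBEC3 gene, 1 panel per gene, in grey, with coloured lines for the other 4 members. APOBEC3C and APOBEC3D lie at the upper edge of each other's distribution, and most other members lie inside the bulk.

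The RefSeq gene table for the gibbon assembly Asia_NLE_v1 held symbols for 6 of the 7 family members, all but APOBEC3F. It lists APOBEC3H, APOBEC3D, APOBEC3C, APOBEC3B and APOBEC3A as direct neighbours, in that order, between CBX7 and CBX6. APOBEC3G is listed on the same chromosome, with 597 other listed genes between it and APOBEC3A. The build behind the expression table is not given in the sources used here, so no coordinates are printed. Among the measured genes, the neighbouring pairs had an r of 0.47 (APOBEC3H and APOBEC3D), 0.89 (APOBEC3D and APOBEC3C) and 0.64 (APOBEC3C and APOBEC3B). The first of these was 0.25 without Khao and 0.75 without China (exact permutation p = 0.034). APOBEC3G, listed apart from the others, had its highest r with APOBEC3H, at 0.67. No test of neighbourhood was made on so few pairs.

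APOBEC3B is known in human cells as a gene that is repressed outside the dividing state, so each member was set against identifier lists for S, G2M and G1 phase genes, of which 176, 169 and 193 passed the filter. The level of a list in a line was the mean deviation of its rows from their medians. APOBEC3B followed none of the lists closely, with r = 0.086 for S phase (exact permutation p = 0.83), -0.25 for G2M (p = 0.53) and 0.085 for G1 (p = 0.83). Whether the lists tell the phases apart in these lines was not tested. APOBEC3C and APOBEC3D had an r below 0 with each list, and APOBEC3G an r above 0 with each. These signs rested on few lines. Without Asia and Vok, the r of APOBEC3G was below 0 with each list, at -0.44 for S and -0.40 for G2M. Without Khao and Vok, the r of APOBEC3D was 0.039 with S and 0.25 with G1. The r of APOBEC3C with G1 was 0.36 without China and Vok. Of the 15 relations of a member with a list, 1 had an unadjusted p under 0.05. By the same test, 23.2% of kept rows did so with the S list, 19.1% with the G2M list and 22.4% with the G1 list.

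That relation was APOBEC3D with the G2M list, at r = -0.67 (exact permutation p = 0.049; rho = -0.68, p = 0.0503). The r was -0.30 without Khao and Vok, and -0.85 without Asia (exact permutation p = 0.0085). With a single line left out, the unadjusted p stayed under 0.05 without Asia or Phyllis and missed it in the other 7 cases, and the exact permutation p adjusted over all kept rows was 0.26. APOBEC3G with the G1 list had the highest positive r, 0.64 (exact permutation p = 0.061), but a rho of 0.25 (exact permutation p = 0.52) and an r of -0.51 without Asia and Vok. It rested on those lines.

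For each member, the 3 kept rows with the most similar pattern over the 9 lines were taken by Pearson's r. The 15 rows so found were all different, with r between 0.91 and 0.97, and none was another APOBEC3 gene. APOBEC3D ranked 54 among the rows most like APOBEC3C, and APOBEC3C ranked 28 among those most like APOBEC3D. The highest values were 0.97 for ENSG00000129675 with APOBEC3G and 0.97 for ENSG00000124222 with APOBEC3C. The table does not pair these identifiers with gene symbols. They are the extremes of 12589 rows over 9 lines, and none passed the adjusted exact permutation test.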

How the data were processed

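RNA-seq had been done on 9 gibbon lymphoblastoid lines, 1 library each. The submitters' processing notes name Trimmomatic, STAR, edgeR and DESeq2 without version, role or order. For the build, the annotation and the normalization method nothing is stated in those sources. The values deposited by the authors were normalised gene counts on a log scale, read as log2. They are not raw counts, so no count test was run and no counting interval can be given. The header separates the last pair of line names by a space, so it was split at white space, and each column was assigned by its name, which left 0 sample columns unused.

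The family and the lists were chosen as a subject with earlier results of these data known, although no level entered the rule for members. The rule for named genes took all members and the 3 rows most like each, of which a few are printed because no symbols could be matched. Exact permutation tests used all orders of the lines (Python 3.11.15, numpy 2.4.6) and were tested on simulated data. Cell cycle identifiers came from the pair classifier of scran 1.30.0, as the higher member in at least 90% of at least 20 pairs. The planned adjustment over pairs of members was replaced by adjustment over all kept rows. The pathway and marker lists were not used. Other scalings, a pseudocount, other filters, Spearman's rho and leaving out each line were tried.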

Additional observations from a re-analysis of the deposited data

Results flagged for a closer look

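Dixon's gap criterion was applied to 21 sets of 9 values, namely the member levels, their sum, their shares of it and the differences between members, and 2 sets had an outlying line. Chance gives about 1 in 20 for independent sets, and these overlap. Of all kept rows, 10.1% had an outlying line in their log2 levels, which can be set only beside the member levels, where 1 of 5 had such a line. No rate over the table was taken for sums, shares or differences. The APOBEC3G level of 6.99 log2 units in Asia lay far below the nearest line, at 8.10. The share of APOBEC3H in the summed level of the family was 40.2% in China, and the next highest was 30.9%, in Ricky. In China the APOBEC3H level itself was the second highest, at 10.49 log2 units, while APOBEC3B and APOBEC3C were at their lowest, 9.62 and 9.71.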

How the results depend on the processing

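No paired analysis was possible because all 9 lines form 1 group. Filters and a common median or total cannot move member means, nor 1 line fewer by 1 SD. Quantile normalization and pseudocount moved them by under 1 SD, and no rescaling moved a line median by over 0.052 log2 units. The number of members spanning at least 2-fold was 2 under all scalings and filters and 1 to 2 with a line left out, being 1 without Asia, China or Melouprey. The number with an outlying line was 0 to 1, and 0 without Asia. The number of pairs with an unadjusted exact permutation p under 0.05 was 2 under the scalings, filters and rho, 1 to 3 with a line left out (1 without Asia, Khao, Melouprey or Ricky), 0 with adjustment over all kept rows, added after the data were seen, and 1 (APOBEC3C with APOBEC3D) with the planned adjustment over the pairs. The number of cell cycle relations was 0 with quantile normalization, a pseudocount of 1 ppm, a filter of 5 ppm, rho or either adjustment, and 0 to 3 with a line left out (3 without Asia). With the columns at a common median it stayed at 1, but the relation was APOBEC3G with the G1 list (r = 0.70, exact permutation p = 0.039), and APOBEC3D with the G2M list missed the threshold (p = 0.081); the same exchange was seen without Khao (p = 0.033 and 0.16) and without Melouprey (p = 0.025 and 0.072). Among the pairs of members and the relations of APOBEC3B with the S and G2M lists, of APOBEC3D with G2M and of APOBEC3G with G1, the sign of r turned in these cases: APOBEC3C with APOBEC3G without Asia (-0.38; at most 0.58 with another line left out), APOBEC3C with APOBEC3H without Asia (-0.047) or Khao (-0.048; at most 0.55), APOBEC3D with APOBEC3G without Asia (-0.064; at most 0.65), and APOBEC3B with the S list without Melouprey (-0.23; at most 0.32) or as rho (-0.050). Of the other relations with a list, the r took either sign with a line left out for APOBEC3C with S (at most 0.031) and G1 (at most 0.22), APOBEC3H with G2M (at most 0.063) and G1 (at least -0.60) and APOBEC3B with G1 (at least -0.18), and the last pair of these had a rho below 0 (-0.10 and -0.017). The cause of these changes was not tested. Depth is unknown, so counting error could not be separated from the spread between lines.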
